A study of Mus musculus with 24 samples.

Results

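Expression of steroid hormone receptors and steroid-converting enzymes was examined in the nucleus accumbens (NAc), the part of the ventral striatum that serves reward, of mice raised with or without early-life stress. The 8 genes were Esr1 and Esr2 (estrogen receptors α and β), Pgr (progesterone receptor), Gper1 (a membrane G protein-coupled receptor that binds estrogen), Cyp19a1 (aromatase), Srd5a1 (steroid 5α-reductase type 1), and Esrra and Esrrg (estrogen-related receptors α and γ). They were chosen by name, and all 8 were found among the 52636 genes counted in each library. RNA-seq was done on 24 libraries, each from the bilateral NAc of 1 C57BL/6 mouse of 50 days. The groups were 6 control (Con) females, 6 females that underwent maternal separation with unpredictable maternal stress (MSUS), 6 Con males and 6 MSUS males. MSUS pups were kept from the dam for 2 h per day on postnatal days 1 to 14 according to the series' design text, while the study's methods give a longer daily separation, and Con litters had no stress. The labels name no transgene and no hormone treatment. The design text states that the female groups were balanced for the phase of the estrous cycle, but the labels give stages to some females and some males, so that no stage was used and its part in any result below was not tested.

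Estradiol, progesterone and androgens act on neurons through intracellular receptors that bind DNA, and estradiol also acts through receptors at the membrane. The brain converts steroids locally: aromatase makes estradiol from testosterone, and 5α-reductase makes dihydrotestosterone and the first step of allopregnanolone, a steroid that acts on GABA-A receptors. The estrogen-related receptors resemble estrogen receptors in sequence but do not bind estradiol, and they are known as activators of mitochondrial and energy metabolism genes.

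The promoters of the genes that passed the test below, Srd5a1 and Esrra, are shown because both genes were lower in MSUS females. Promoter GC content did not enter the offsets for GC content among the alternatives below. Those used the GC content of transcripts, 51.5% for Srd5a1 and 50.3% for Esrra. Each is the 250 bases before the annotated start, from RefSeq on GRCm38.p6, minus strand, written in the direction of transcription. Capitals mark the GC box, GGGCGG or its reverse CCGCCC.
Srd5a1, chr13:69611464-69611713: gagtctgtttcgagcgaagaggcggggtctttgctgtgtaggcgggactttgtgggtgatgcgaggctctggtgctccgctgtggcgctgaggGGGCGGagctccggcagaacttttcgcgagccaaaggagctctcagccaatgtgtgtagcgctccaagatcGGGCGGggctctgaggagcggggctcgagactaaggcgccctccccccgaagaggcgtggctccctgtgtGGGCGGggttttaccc
Esrra, chr19:6921809-6922058: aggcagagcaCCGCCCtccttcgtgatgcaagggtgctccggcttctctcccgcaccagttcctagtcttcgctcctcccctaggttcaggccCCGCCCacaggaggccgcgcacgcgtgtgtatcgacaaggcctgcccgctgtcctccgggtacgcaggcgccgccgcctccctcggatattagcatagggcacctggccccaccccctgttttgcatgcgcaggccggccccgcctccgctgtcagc

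The Srd5a1 window held 3 GC boxes and 20 CpG sites with a GC content of 64.8%, and the Esrra window held 2 GC boxes and 22 CpG sites with a GC content of 68.4%. The median over all 32851 windows of this kind was 52.4% GC and 6 CpG sites, and 32.7% of them held a GC box on either strand. All 8 genes had at least 1 window, 14 in all, and 5 of the 14 held a GC box. These features were not particular to the genes that passed: an Esrrg window, chr1:187651991-187652240 on the plus strand, held 2 GC boxes and 22 CpG sites with a GC content of 63.6%, and the Pgr window, chr9:8899583-8899832 on the plus strand, held 1 GC box and 4 CpG sites with a GC content of 43.6%. None of the 14 held the palindromic estrogen response element GGTCANNNTGACC, which 0.0639% of all windows held, or the estrogen-related receptor element TNAAGGTCA, which 1.14% held, on either strand. The nuclear receptor binding site AGGTCA, which the second of these elements contains, was found in 1 of the 14, the Cyp19a1 window at chr9:54268165-54268414, against 14% of all windows.

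The levels of the 8 genes spanned more than 2 orders of magnitude per length. As counts divided by DESeq2 size factors (normalized counts) per kb of exon, averaged over 24 animals, Esrra was highest at 354 ± 36.7 (SD, n = 24). It was followed by Esrrg at 249 ± 71.2, Pgr at 187 ± 17 and Srd5a1 at 108 ± 21.4. Gper1 had 41.5 ± 4.72, Esr1 11.6 ± 3.66, Esr2 5.08 ± 1.49 and Cyp19a1 2.33 ± 1.24. Among 21819 protein-coding genes, 71.9% had a lower mean level per kb than Esrra, 60.1% a lower one than Pgr, 36.4% a lower one than Esr1 and 29% a lower one than Cyp19a1. The progesterone receptor was thus the classical receptor of this list with the highest level, above Esr1 in each of the 24 animals.

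**Figure D1:**
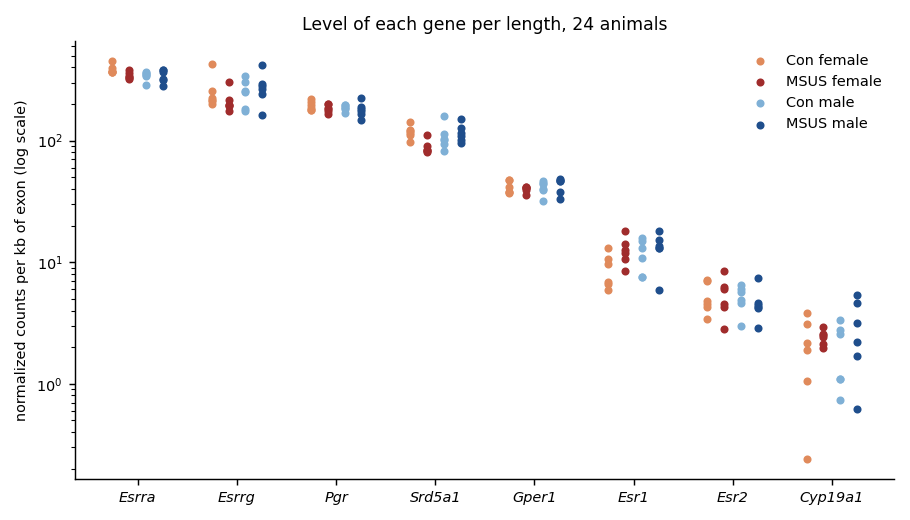
Normalized counts per kb of exon (vertical axis, log scale) of the 8 genes in each of the 24 animals (points, colored by group), ordered by their mean. The points of Srd5a1, Gper1 and Esr1 do not overlap with each other, from 81.1 for the lowest Srd5a1 animal to 18.1 for the highest Esr1 animal.

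Not every neighbor in this order was apart beyond the spread over animals. Esrra exceeded Esrrg in 22 of 24 animals and Esrrg exceeded Pgr in 21 of 24, with overlapping ranges. Pgr exceeded Srd5a1, Srd5a1 exceeded Gper1 and Gper1 exceeded Esr1 in 24 of 24 animals. Esr1 exceeded Esr2, and Esr2 exceeded Cyp19a1, in 22 of 24. Exon lengths were 13661 bases for Esr1 and 2537 for Gper1, so that raw counts do not give this order. Esr2 had between 9 and 26 counts per library and Cyp19a1 between 1 and 25. The exact Poisson 95% interval is 0.0253 to 5.57 for 1 count, the lowest of Cyp19a1. For Esr2 it is 9.15 to 26 at its median of 16 counts and 17 to 38.1 at its highest of 26. These intervals cover counting error only. Differences within them could not be told from counting error in single animals at this depth.

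Libraries held between 39923666 and 70575745 sense counts. All 11 markers of striatal projection neurons, such as Drd1 and Drd2, were detected in each group, with summed normalized counts between 140770 in Con female 3 and 365514. Markers of cortical excitatory neurons (10 of 10 detected) summed to between 18031 and 112676, with the highest sums in MSUS male 6 and Con female 3. Of 16 markers of septum, bed nucleus and hypothalamus, where Esr1 is abundant, Sim1, Agrp and Hcrt had under 10 normalized counts in every library. The sum of the 16 lay between 3888 and 9409, the highest value in Con male 6. After group means were removed, Esr1 and this sum had r = 0.37 and rho = 0.49 (adjusted permutation p = 0.191 and 0.0777). In females the share of uniquely mapped pairs matched to no gene in the sense counts (unassigned share) was between 31.0% and 34.8% in Con. It was between 36.3% and 43.9% in MSUS females, with no overlap. Such pairs can lie within genes, outside exons or on the opposite strand. Splice events per mapped pair (spliced share) were between 0.397 and 0.417 in Con and between 0.3215 and 0.381 in MSUS females. Group and library composition therefore cannot be told apart there.

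In females, Srd5a1 and Esrra were lower in MSUS than in Con animals, and the other 6 genes did not pass the threshold of an adjusted p of 0.10. The comparison asks which of these genes differed after early-life stress in one sex. With 2 of 8 genes past the threshold, the count was at the background of 25.1% of 20571 genes called in this comparison (13.1% higher and 11.9% lower in MSUS). That background itself varied: it was 3102 genes without MSUS female 3 and 3358 without MSUS female 2 in place of 5156, 0 with unassigned or spliced share as a covariate, 1634 with the cortical marker score and 12 with the oligodendrocyte marker score. The groups did not overlap for 0 of the 8 genes, against 7.21% of all genes tested.

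Srd5a1 (chr13:69573449-69611442, minus strand), whose enzyme reduces testosterone and progesterone, had normalized counts between 286 and 412 (median 343) in Con females. In MSUS females it had between 236 and 326 (median 243). Of the MSUS females, 5 lay below the lowest Con female and MSUS female 2 lay within the Con range. The mean was 343 ± 41.4 (SD, n = 6) in Con and 258 ± 34.3 (n = 6) in MSUS females, a log2 fold change of -0.41 (SE 0.10, adjusted p = 0.0187, edgeR quasi-likelihood test over all genes). In a bulk sample, fewer cells of a type and less RNA per cell cannot be told apart.

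Markers of cortical excitatory neurons and of oligodendrocytes moved with Srd5a1. After the group means were removed, log2 Srd5a1 followed the summed cortical markers over the 24 animals (r = 0.79, rho = 0.77, adjusted permutation p = 0.000533 and 0.0024). It also followed the 6 oligodendrocyte markers (r = 0.78, rho = 0.75, adjusted permutation p = 0.00032 and 0.0024). These are 2 of 32 relations of a gene to a library measure, of which 10 had an adjusted permutation p of r under 0.10. The 10 also involved Esrrg, Esrra, Pgr, Gper1 and Esr2. Without the 2 animals farthest from the median, r was 0.68 and 0.70, and within library numbers 1 to 12 and 13 to 24 it was between 0.72 and 0.87. Oligodendrocyte markers summed to between 212633 and 321660 in Con and between 193969 and 237358 in MSUS females, and 6 of 6 had a negative log2 fold change, of which 5 passed the threshold. Cortical markers summed to between 29583 and 107695 in Con and between 19271 and 51761 in MSUS females, and 9 of 10 had a negative log2 fold change (median -1.82), of which 3 passed. With a cortical marker score in the model, the log2 fold change of Srd5a1 was -0.22 (adjusted p = 0.261), and with an oligodendrocyte marker score, chosen after seeing the data, it was -0.17 (adjusted p = 0.552). With unassigned share it was -0.54 (adjusted p = 0.760) and with spliced share -0.59 (adjusted p = 0.905), so that the call was lost with these measures without a smaller fold change. Without Con females 2 and 3, which had the most cortical marker RNA, it was -0.33 (adjusted p = 0.0551).

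**Figure D2:**
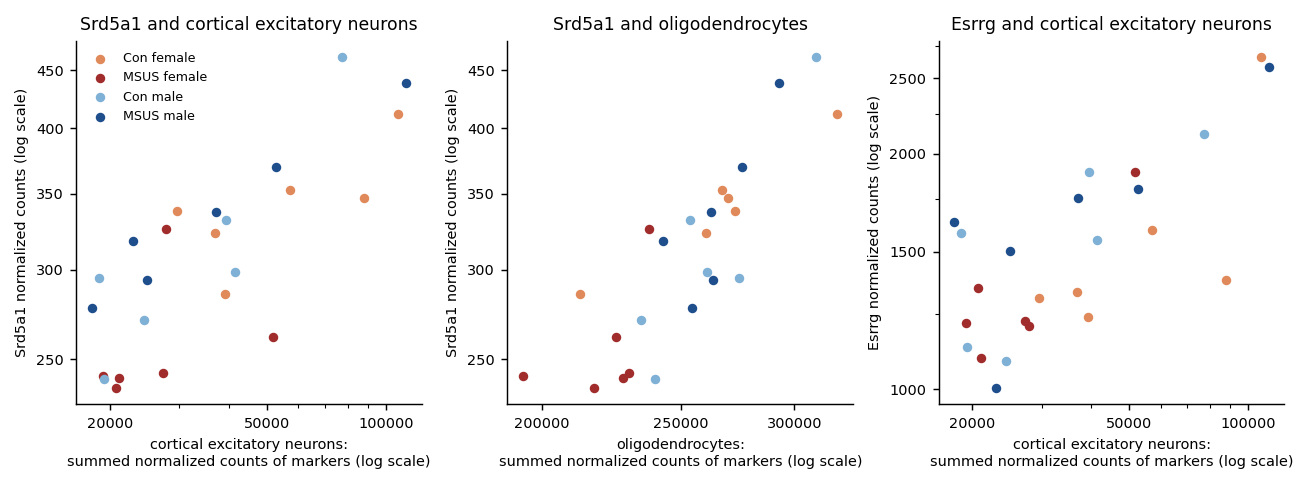
Normalized counts of Srd5a1 against the summed normalized counts of cortical markers (left) and oligodendrocyte markers (middle), and of Esrrg against cortical markers (right), in 24 animals colored by group; all axes are log scales. The points rise together in each panel, with r of 0.79, 0.78 and 0.77 after group means were removed.

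Esrra (chr19:6910977-6921813, minus strand) had between 1607 and 1996 normalized counts (median 1636) in Con females. In MSUS females it had between 1414 and 1669 (median 1479). MSUS female 1 lay above 4 of the Con females and the other 5 lay below all of them. The means were 1705 ± 152 and 1513 ± 97.6 (SD, n = 6 each), a log2 fold change of -0.17 (SE 0.057, adjusted p = 0.0614, edgeR). This call rested on a small difference: without MSUS female 2, 3, 4 or 5 the adjusted p rose above the threshold, up to 0.137. With offsets for GC content and length it was 0.202, and with the cortical marker score it was 0.359. With unassigned share as a covariate the log2 fold change of Esrra was nearer 0, at -0.05 (adjusted p = 0.920, edgeR). With spliced share it was -0.08 (adjusted p = 0.931, edgeR). After group means were removed, Esrra and unassigned share had r = -0.56 and rho = -0.45 (adjusted permutation p = 0.0815 and 0.181).

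**Figure D3:**
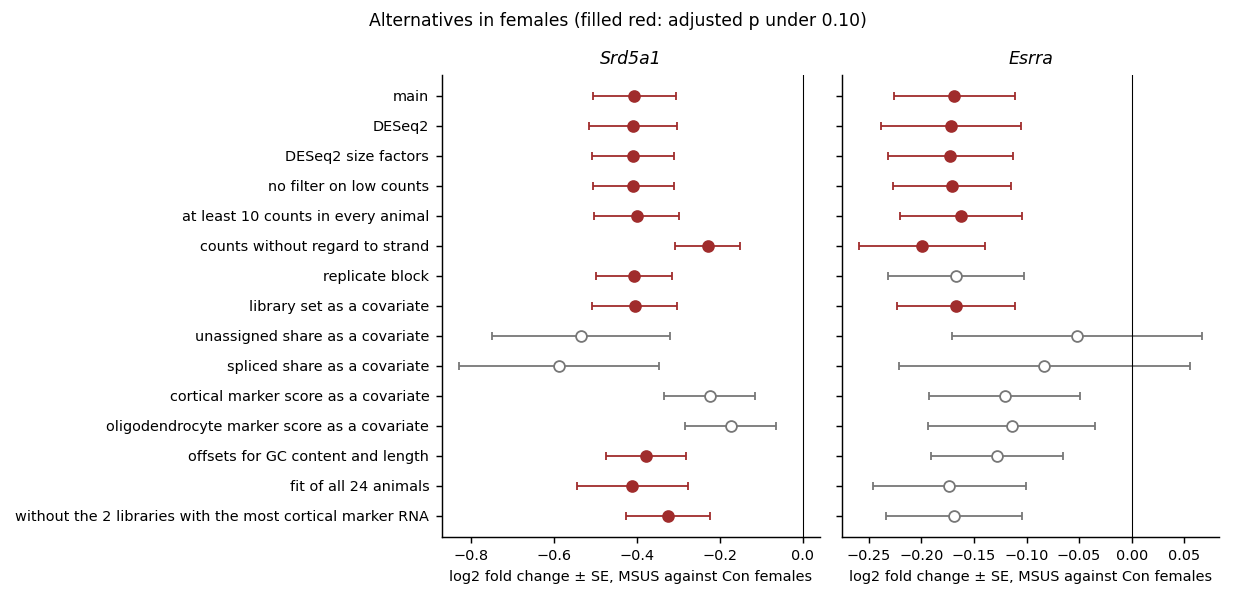
Log2 fold change with its SE (horizontal axis) of Srd5a1 (left) and Esrra (right) between MSUS and Con females in the reported fit (main) and 14 alternatives, with filled red points for an adjusted p under 0.10. Srd5a1 stays below 0 throughout, from -0.59 to -0.17, and is not called with any of the 4 measures of library composition as a covariate.

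**Figure D4:**
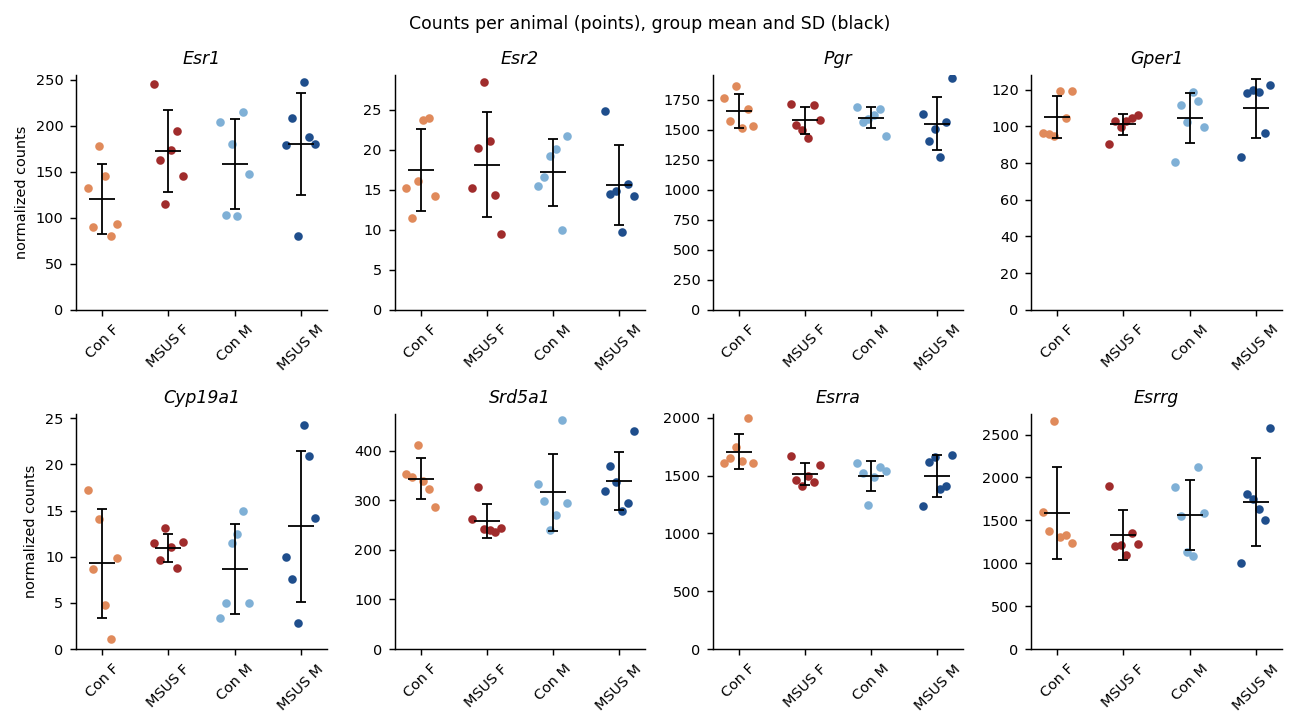
Normalized counts of each gene (vertical axes, from 0) in each animal (points) of the 4 groups, with the group mean and SD in black (n = 6 each; F, female; M, male). In the Srd5a1 panel 5 MSUS females lie below every Con female, with 1 at 326, and the groups overlap in every panel.

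Esr1, which encodes estrogen receptor α, had between 80.6 and 178 normalized counts (median 113) in Con females and between 115 and 245 (median 168) in MSUS females. Groups overlapped over the range from 115 to 178, and 3 of the Con females lay above the lowest MSUS female. The means were 119.9 ± 38.1 and 173 ± 44.6 (SD, n = 6 each). The log2 fold change of 0.53 (SE 0.21) missed the threshold (adjusted p = 0.108, edgeR), and its 95% interval was 0.11 to 0.95. Esr1 passed in 3 of 14 alternatives. These were DESeq2 (adjusted p = 0.0699), and edgeR without regard to strand (0.0943) or without Con females 2 and 3 (0.0854). Over the 14, its log2 fold change was between 0.52 and 0.99. With 1 animal left out, Esr1 passed in 3 of 12 edgeR fits: without Con female 3 (adjusted p = 0.042), Con female 4 (0.0997) or MSUS female 3 (0.087).

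The other estrogen and progesterone receptors differed little between female groups relative to their error. Pgr had between 1513 and 1865 normalized counts in Con and between 1427 and 1711 in MSUS females, a log2 fold change of -0.06 (SE 0.062, adjusted p = 0.494, edgeR). Gper1, which signals through G proteins, had between 94.9 and 119.6 in Con and between 90.7 and 106 in MSUS females, a log2 fold change of -0.05 (SE 0.091, adjusted p = 0.726, edgeR). Esr2 had between 11.5 and 24 in Con and between 9.47 and 28.5 in MSUS females, a log2 fold change of 0.06 (SE 0.26, adjusted p = 0.891, edgeR). The sign of these 3 values changed under at least 1 alternative.

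Cyp19a1, the enzyme that makes estradiol, had between 1.09 and 17.2 normalized counts in Con and between 8.82 and 13.1 in MSUS females, and its log2 fold change of 0.23 had an SE of 0.38 (adjusted p = 0.706, edgeR). Esrrg, an orphan receptor with no known natural ligand, had between 1237 and 2659 in Con and between 1098 and 1898 in MSUS females, a log2 fold change of -0.25 (SE 0.20, adjusted p = 0.408, edgeR). Its highest Con value was that of Con female 3, the female with the most cortical marker RNA and the least striatal marker RNA, and without that animal the log2 fold change was -0.04. Esrrg followed the cortical markers over all animals (r = 0.77, rho = 0.69, adjusted permutation p = 0.000533 and 0.0124).

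In males, 0 of 8 genes passed the threshold between MSUS and Con, as did 0 (0%) of 20691 genes tested by edgeR. By edgeR 191 genes of the whole table had an unadjusted p under 0.05 and by DESeq2 304, with 0 past the threshold. None of the 8 had an unadjusted p under 0.05. Log2 fold changes lay between -0.16 for Esr2 and 0.60 for Cyp19a1. Srd5a1 had between 240.3 and 462 normalized counts (median 297) in Con and between 277 and 439 (median 328) in MSUS males. Its log2 fold change was 0.10 (SE 0.15, adjusted p = 1.00, edgeR), with a 95% interval of -0.20 to 0.40. Esrra had a mean of 1497 ± 129 in Con and 1500 ± 181 in MSUS males (SD, n = 6 each). Esr1 had between 102 and 215 in Con and between 80.1 and 247 in MSUS males, a log2 fold change of 0.19 (SE 0.26). The groups did not overlap for 0 of 8 genes, against 0.0387% of all genes.

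**Figure D5:**
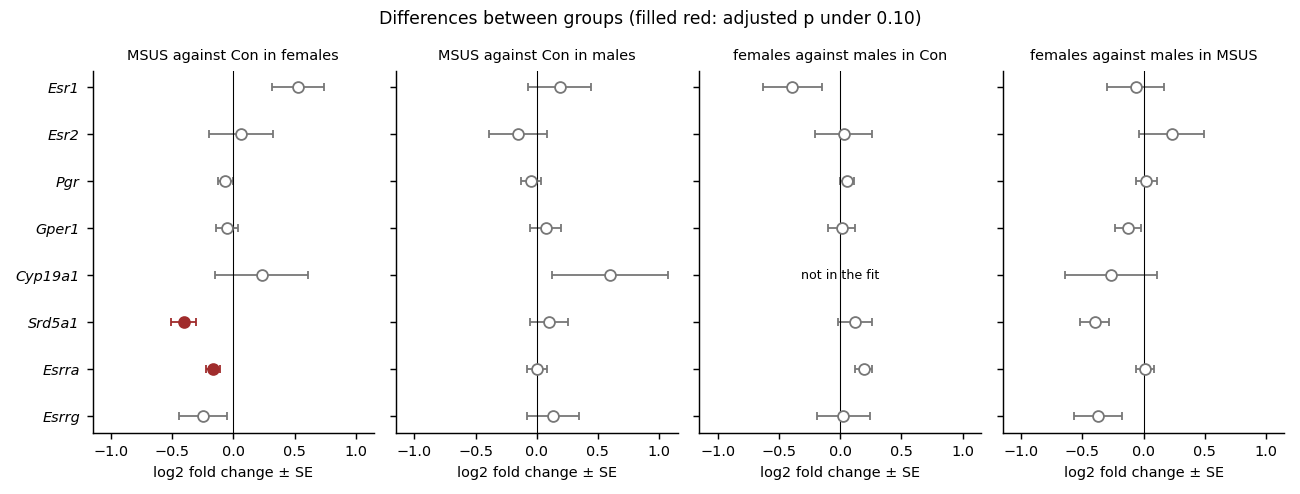
Log2 fold change with its SE (horizontal axis) of each gene in the 4 comparisons between groups, with filled red points for an adjusted p under 0.10. Only Srd5a1 at -0.41 and Esrra at -0.17 in the comparison of MSUS with Con females are filled; Cyp19a1 was left out of the fit in Con animals by the filter on low counts.

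The group-by-sex interaction, which asks whether the difference between MSUS and Con was unequal in the sexes, passed for 0 of 8 genes and for 0 (0%) of 21500 genes tested by edgeR. Over the whole table, 4031 genes had an unadjusted p under 0.05 by edgeR, and DESeq2 called 408. Without MSUS male 1, edgeR called 3031 of 21617 genes, and without any other single animal at most 1. The interaction of Srd5a1 had a log2 value of -0.51 (SE 0.19, unadjusted p = 0.0127, adjusted p = 0.212, edgeR), more negative in females. Without MSUS male 1, when many genes passed, its adjusted p was 0.099. Its value was -0.20 with the cortical marker score, -0.16 with the oligodendrocyte marker score, -0.29 with unassigned share and -0.30 with spliced share as a covariate. All 10 cortical and all 6 oligodendrocyte markers had negative interaction values too (medians -2.16 and -0.28), and 0 of them passed. For Esrra the value was -0.18 (SE 0.10, adjusted p = 0.342, edgeR) and for Esr1 0.34 (SE 0.35, adjusted p = 0.597, edgeR). A lower level of Srd5a1 and Esrra in MSUS animals was therefore called in females, but a difference of that effect between the sexes was not.

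Between Con females and Con males, 0 of the 7 genes in the fit passed, against 2.64% of all genes (544) called by edgeR. With 1 animal left out, the whole-table count varied between 20 without Con female 4 and 1395 without Con male 5. It was 10 with spliced share as a covariate, 11 with unassigned share and 12 with the replicate block, and DESeq2 called 1474. Esrra was nearest, with a mean of 1705 ± 152 in females and 1497 ± 129 in males (log2 fold change 0.19, SE 0.070, unadjusted p = 0.0153, adjusted p = 0.172, edgeR). The Esrra value was 0.059 with unassigned share, 0.063 with spliced share and 0.17 with the cortical marker score as a covariate. Unassigned share was between 31.0% and 34.8% in Con females and between 34.7% and 40.6% in Con males. All 10 cortical markers had positive values in this comparison (median 0.906), and 0 of them passed. The part of library composition in this difference was not tested. Esr1 had a mean of 119.9 ± 38.1 in females and 159 ± 49.2 in males (log2 fold change -0.39, SE 0.24, adjusted p = 0.410, edgeR). Cyp19a1, with too few counts for the fit, had 9.27 ± 5.92 in Con females and 8.70 ± 4.87 in Con males (n = 6 each), a difference that an exact two-sided permutation test over all splits of the 12 animals gave a p of 0.857. The groups did not overlap for 0 of 8 genes, against 2.01% of all genes.

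Between MSUS females and MSUS males, 0 of 8 genes passed, against 0.135% of all genes. Srd5a1 had 258 ± 34.3 normalized counts in females and 339 ± 58.6 in males, a log2 fold change of -0.40 (SE 0.12, unadjusted p = 0.00467, adjusted p = 0.397, edgeR). Of the 6 MSUS females, 5 lay below the lowest MSUS male at 277. All 6 oligodendrocyte markers (median log2 fold change -0.26) and all 10 cortical markers (median -1.21) had negative values in this comparison as well, and 0 of them passed. The log2 fold change of Srd5a1 was -0.24 with the cortical and -0.08 with the oligodendrocyte marker score as a covariate. Esrrg had 1331 ± 289 in females and 1714 ± 513 in males (log2 fold change -0.37, SE 0.20, adjusted p = 0.667, edgeR). The groups did not overlap for 0 of 8 genes, against 0.637% of all genes. The MSUS females enter this comparison and that with Con females, so that the Srd5a1 values of both share these animals.

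The genes around these receptors were read from lists chosen with earlier results of these data known, and their counts in females stand against 25.1% of all genes called, 13.1% higher and 11.9% lower. In females, among 19 textbook targets of the estrogen-related receptors that were tested, 12 were lower in MSUS and 0 higher, with a median log2 fold change of -0.14 against -0.003 for all genes. They included Cox5b (-0.21) of cytochrome oxidase, Atp5b (-0.21) of ATP synthase, the mitochondrial creatine kinase Ckmt1 (-0.18) and Sdhb (-0.14) of succinate dehydrogenase, with adjusted p between 0.00309 and 0.0072 (edgeR). Among 14 textbook targets of estrogen receptors, 1 was higher and 2 were lower, a share no larger than that of all genes. The higher one was the prolactin receptor Prlr (1.60, adjusted p = 0.0463, edgeR), and the lower ones were the lysosomal protease Ctsd (-0.25, adjusted p = 0.00956) and the chemokine Cxcl12 (-0.13, adjusted p = 0.0865).

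Among 31 coregulators of steroid receptors, 2 were higher and 6 lower in MSUS females, a share near the 25.1% of all genes. The share lower was above the 11.9% and the share higher below the 13.1% of all genes. Lcor, a ligand-dependent corepressor, was higher (0.18, adjusted p = 0.0266, edgeR), and Phb2 (-0.10), Ddx54 (-0.14) and the chromatin remodeler Smarca4 (-0.11) were lower. The study picked Smarca4 and Ddx54, among others, from these animals, so that this count is no independent evidence of a direction. Of 11 chaperones that hold steroid receptors ready for ligand, 3 were lower and 0 higher, near the 25.1% called but above the 11.9% lower. The 3 were Stub1 (-0.16, adjusted p = 0.0183, edgeR), Hsp90ab1 (-0.17, 0.0228) and Dnajb1 (-0.19, 0.0337). Of 23 tested enzymes of steroid synthesis and conversion, 2 were lower, below the 11.9% of all genes that were lower: Cyp46a1 (-0.18, adjusted p = 0.0266, edgeR), which hydroxylates cholesterol in neurons, and Hsd11b1 (-0.48, 0.078), which regenerates active glucocorticoid. Of 12 other steroid and orphan steroid-like receptors, 1 was lower, also below that share, the membrane progestin receptor family gene Paqr4 (-0.27, adjusted p = 0.00571, edgeR). With spliced share as a covariate, 0 genes of these 6 lists were called in females, as were 0 of all 20571, and in males 0 were called in the lists and in the whole table. Between Con females and Con males, 1 of 31 coregulators and 1 of 11 chaperones were called, both higher in females, against 2.64% of all genes.

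The 8 genes varied among themselves to different degrees. Within groups, the coefficient of variation was 9.21% for Esrra, 9.42% for Pgr, 11.8% for Gper1 and 17.7% for Srd5a1. It was 29.0% for Esrrg, 29.9% for Esr1, 31.0% for Esr2 and 53.6% for Cyp19a1, the last 2 with few counts. Of 28 pairs, 2 were correlated over the 24 animals after group means were removed. Srd5a1 and Esrrg rose together (r = 0.67, rho = 0.71, adjusted permutation p = 0.0272 and 0.0162), as did Esrra and Esrrg (r = 0.61, rho = 0.59, adjusted permutation p = 0.0801 and 0.0679). Without the 2 farthest animals r was 0.56 and 0.43, and within library numbers 1 to 12 and 13 to 24 it lay between 0.62 and 0.71. All 3 genes also followed the cortical markers (for Esrra r = 0.53, adjusted permutation p = 0.091). So did Pgr (r = 0.63, adjusted permutation p = 0.0282), while Esr2 ran against them (r = -0.46, adjusted permutation p = 0.0911). Esr1 was in neither of the 2 correlated pairs.

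The genes most like each member over the 24 libraries, among 14299 with a mean of at least 100 normalized counts, are given as a description. Esr1 was most like Cpne7 (r = 0.90), Greb1l (0.87) and Hpcal1 (0.85). Pgr was most like Rap1b (r = 0.91), Ap3s1 (0.88) and the calcineurin subunit Ppp3cb (0.87). Srd5a1 was most like Nfasc (r = 0.88), a gene of axon initial segments and nodes of Ranvier, Cpe (0.87) and Lhfpl2 (0.87). Esrra was most like Pla2g7 (r = 0.90), the creatine transporter Slc6a8 (0.90) and the mitochondrial phosphate carrier Slc25a3 (0.90). Esrrg was most like Lhfp (r = 0.96) and Cadps (0.95). Gper1 was most like Rars (r = 0.79), Psmb1 (0.77) and Wdr73 (0.77), r values below those of the other 5 genes. These genes share depth and tissue composition with the member in every library.

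Reads from the opposite strand were counted separately and bear on some of these values. Gper1 lies within a gene model on the opposite strand, and 49.0% of the counts at its locus were antisense. For Srd5a1, which lies within the RNA methyltransferase gene Nsun2 of the opposite strand and overlaps the gene model Gm17108 on its own, 24.8% were antisense, and counted without regard to strand its log2 fold change in females was -0.23 (adjusted p = 0.0562, edgeR) in place of -0.41. For Pgr 16.02% were antisense, with between 196 and 413 such counts in every library. The share was 4.90% for Esrra, 6.13% for Esr1, 2.31% for Cyp19a1, 0.441% for Esrrg and 0.243% for Esr2.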

How the data were processed

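The authors isolated NAc RNA, depleted it of ribosomal RNA, aligned read pairs with STAR (2.6.1b in the submitters' processing notes) to mm10 with GENCODE M15, and deposited STAR's unnormalized gene counts of uniquely mapped pairs in 3 columns, unstranded and per strand. The sense column was used. Of 52636 gene identifiers, 52403 were found in GENCODE M21 (GRCm38, the same assembly). Counts were tested with edgeR 4.0.16 in R 4.3.3 (filterByExpr with a minimum count of 10, TMM, robust quasi-likelihood F test, Benjamini-Hochberg adjustment over all genes tested, threshold 0.10), after the procedure was tested on simulated data. Levels are counts over DESeq2 size factors. Correlations used log2 CPM with group means removed and 100000 permutations within groups. Spliced share is splice events per mapped pair from the study's sequencing summary.

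The genes and lists were chosen with earlier results of these data known. Named genes are all 8 members, at most 4 genes per list with the smallest p in females and a mean of at least 100 normalized counts, and the 3 genes most correlated with each member that had a median of at least 100 counts. Of the genes so named, 1 is not reported here. Whether replicates were from separate litters is not given in the sources used here, so p-values measure the spread between these animals. The authors' DESeq2 comparisons, of which the one within females modeled estrous status, were not used.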

Additional observations from a re-analysis of the deposited data

Results flagged for a closer look

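Of 32 groups of 6 animals, 5 held 1 value far from the other 5 by Dixon's criterion, which chance gives in about 1 in 20 groups. Srd5a1 had 326 normalized counts in MSUS female 2, above 236 to 262 in the other MSUS females. Esrra had 1996 in Con female 5, above 1607 to 1748, and 1249 in Con male 3, below 1487 to 1609. Esrrg had 2659 in Con female 3, above 1237 to 1597, and 1898 in MSUS female 1, above 1098 to 1349.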

How the results depend on the processing

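Of the 2 genes called in females, 1 was called at an adjusted p under 0.05, with the replicate block, with offsets for GC content and length, and in a fit of all 24 animals, and 0 with unassigned share, spliced share, cortical marker score or oligodendrocyte marker score as a covariate. Srd5a1 was -0.54 and -0.59 with the first 2 of these, which left 0 genes called in the whole table, and -0.22 and -0.17 with the scores. Esrra was -0.05 and -0.08 with the first 2, and -0.12 and -0.11 with the scores. With DESeq2 and with counts without regard to strand, 3 were called in females. With 1 animal left out, 1 to 3 were called in females and 0 to 1 for the interaction. Srd5a1 was called in all 12 of these fits in females and Esrra in 8. The other 3 comparisons had 0 called genes under every alternative. Deviations of same-numbered animals from their group means had correlations from -0.60 to 0.63, which cannot tell whether the replicate numbers pair the animals. With the replicate block Esrra had an adjusted p of 0.127 and Srd5a1 0.0419 in females (edgeR). The sign of uncalled values in females changed for Esr2 with unassigned share (-0.20), spliced share (-0.34), cortical score (-0.25), oligodendrocyte score (-0.058) and without the 2 most cortical libraries (-0.076), and ranged from -0.11 to 0.19 with 1 animal left out. It changed for Pgr with the cortical (0.0212) and oligodendrocyte (0.0206) scores, for Gper1 without regard to strand (0.0757) and with GC offsets (0.0259), for Cyp19a1 with unassigned (-0.0047) and spliced share (-0.32), and for Esrrg with the cortical (0.16) and oligodendrocyte (0.14) scores. Esrrg between MSUS females and males was 0.14 with the oligodendrocyte score. The cause was not tested. The order of levels was the same for all 8 genes with TMM CPM and without regard to strand, and 2 pairs of genes were correlated without centring. The alternatives with the oligodendrocyte score and without 2 libraries were chosen after seeing the data. Depth limits Cyp19a1 and Esr2.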
